A study of Mus musculus with 87 samples.

Results

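The vesicle release genes are the genes whose products tether, prime and fuse vesicles with the plasma membrane, and they were followed across mouse ventral midbrain nuclei after interferon-gamma (IFN-γ). A gene was a member if its symbol belonged to the synaptotagmin, synapsin, SV2, complexin, VAMP, RIM, Munc13, syntaxin-binding, Rab3 or CAPS families and it had at least 50 counts summed over the 84 wells of sorted nuclei. Of the 48526 genes in the table, 57 matched by name and 48 were members. The synaptotagmins gave 15 members and the syntaxin-binding proteins 7. VAMP gave 5 members, RIM and Rab3 each gave 4, and synapsin, SV2 and Munc13 each gave 3. Complexin and CAPS each gave 2. Just inside the minimum stood Rab3d with 58 counts and Vamp5 with 138, and just outside it stood Unc13d with 33 and Vamp8 with 25.

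As background, a synaptic vesicle docks at the active zone, where RIM and Munc13 proteins prepare it, and a vesicle-borne VAMP then pairs with partner SNAREs on the plasma membrane under the control of syntaxin-binding proteins. Many but not all synaptotagmins bind calcium, and complexins clamp or assist the last step. Synapsins hold reserve vesicles, and SV2 and Rab3 proteins ride on the vesicle membrane. The CAPS proteins, encoded by Cadps and Cadps2, act in the priming of dense-core vesicles, which carry peptides and trophic factors. In the midbrain this machinery serves dopamine, GABA and glutamate neurons, and some of its genes are also transcribed in glia.

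The samples were nuclei of adult male and female C57BL/6J wildtype mice whose ventral midbrain was injected with 40 ng of IFN-γ in 400 nL or with saline. Nuclei were sorted by NeuN, a nuclear protein of most neurons, and 42 wells of each fraction were sequenced. In each fraction 6 IFN-γ wells stood at 6, 24, 48 and 72 h. The saline wells numbered 6 at 24 h and 4 at each of the other times. A separate table held 4699 single nuclei of 3 mice at 48 h, 1016 of the saline mouse and 2574 and 1109 of the IFN-γ mice, with 0 barcodes shared between mice. The growth protocol in the labels describes DATIRES-Cre:Ifngr1fl litters, in which Cre is driven in cells that express the dopamine transporter and the Ifngr1 locus is floxed, while the genotype given for the samples is wildtype. The labels do not say which wells came from which animals, and they name every well NeuN+, so the fraction was taken from the study's supplementary sample list and checked against marker genes. The legend of a supplementary figure gives other numbers of wells per fraction than that list. By the study's figure legends the wells of each treatment and time came from fewer mice than there were wells, so wells share animals, within a fraction and possibly between fractions. Each SD, SE and p of the wells treats them as independent, and the spread between mice was not tested.

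The values deposited by the authors are counts of unique molecules per gene. Levels are given as CPM, each count divided by the total of its well and scaled to a common total, so they are shares of the RNA captured. NeuN- wells held 20962 to 301445 counts, with a median of 110248, and NeuN+ wells held 277113 to 1684374. Summed over the 48 members, NeuN- wells gave a median of 2733 CPM (2338 to 5088) and NeuN+ wells a median of 10714 CPM (10051 to 11580). The member totals of the fractions did not overlap. Membership used counts summed over both fractions, so a gene could pass the minimum through the deeper NeuN+ wells alone. Sv2b, for one, had 11 counts in saline NeuN- wells and 1975 in saline NeuN+ wells. The part of that choice in the totals was not tested. Rbfox3, which encodes NeuN, had 13.9 ± 29.9 CPM in saline NeuN- wells and 132 ± 31.0 CPM in saline NeuN+ wells (SD, n = 18 each). In the same wells Mobp, a myelin gene, had 1358 ± 273 CPM in NeuN- and 57.8 ± 17.2 CPM in NeuN+. Of the other neuron markers, Map2 in NeuN- wells stood at 37.9% of its NeuN+ level, Meg3 at 22.0%, Gad2 at 6.45% and Slc17a6 at 5.05%, while Slc32a1 was at 0 in NeuN- and Tubb3 at 0 in both. In such wells, fewer cells of a type and less RNA per cell cannot be told apart.

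In saline wells most members were higher in NeuN+ nuclei. The count minimum favours genes with counts in the deeper NeuN+ wells, and its part in this result was not tested. The edgeR fit, with time as a covariate, tested 30 of the 48 members and called 25 higher and 2 lower in NeuN+ at a log2 difference beyond 0.5 and an adjusted p below 0.01, where 59.7% of all genes tested were called. The median log2 difference was 2.41 over these members and 0.00 over all genes. DESeq2 called 41 members, and the edgeR count was lower with NeuN+ counts thinned and higher with no filter on low counts, as given below. Sv2b rested on 11 counts in the saline NeuN- wells, with 10 of those 18 wells at 0. Rab3c, a vesicle GTPase, had 596 ± 31.8 CPM in NeuN+ and 30.8 ± 11.5 in NeuN- wells (SD, n = 18 each), and Syt1, the fast calcium sensor, had 1835 ± 321 and 124 ± 66.1. Log2 differences were 4.12 for Rab3c (adjusted p = 5.26e-38), 4.14 for Sv2b (2.45e-21), 2.78 for Stxbp5l, a tomosyn relative (1.82e-32), 3.87 for Syt1 (9.12e-31) and 3.13 for Rims1 (2.37e-31). Stxbp3, a syntaxin-binding protein found in many non-neuronal cells, went the other way, with 28.4 ± 7.29 CPM in NeuN+ and 249.6 ± 42.7 in NeuN- wells and a log2 difference of -3.21 (adjusted p = 5.6e-34). Stxbp6 was the other lower member (-1.22, adjusted p = 5.1e-22). Cadps2 stood at 313 ± 37.7 CPM in NeuN+ and 96.4 ± 36.2 in NeuN- wells, and Cadps at 1112 ± 76.0 and 258 ± 51.9.

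The question put to the IFN-γ wells was which genes the cytokine changes in neurons and in other cells, and when. A member was called when its log2 fold change passed 1 and its adjusted p was below 0.01. A second count took every adjusted p below 0.05. Counts at an unadjusted p below 0.05 are also given, here and below. The share of all genes at that limit was not computed, so those counts are not a result about the members. In NeuN- wells at 6 h, 12 members had counts enough for the test and 1 rose and 1 fell by the first rule, which called 11.7% of all genes. By the second rule 1 rose and 5 fell, against 33.1% of all genes, and the members' median log2 fold change was -0.53 beside 0.00 over all genes. At 24 h, 9 members were tested and 2 rose by the first rule (14.6% of all genes called), and by the second rule 2 rose and 3 fell (41.3% of all genes), with medians of -0.09 and 0.01. With DESeq2, which took more members into the test, the first rule called 1 at 6 h and 3 at 24 h. At 48 h, 11 members were tested and edgeR called 0 (1.4% of all genes), while 3 had an unadjusted p below 0.05, DESeq2 called 0, and 1 passed the second rule (6.21% of all genes). At 72 h, 14 members were tested and edgeR called 0 by the first rule (1.13% of all genes) and 0 by the second (3.98%), with 2 at an unadjusted p below 0.05 and 0 called by DESeq2. The medians were -0.01 for members and for all genes at 48 h, and -0.16 beside 0.00 at 72 h.

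In NeuN+ wells the first rule of edgeR called 0 members at each time. The shares of all genes given here belong to the first and second rules and cannot be set against the counts at an unadjusted p. At 6 h, 43 members were tested, 15 had an unadjusted p below 0.05 and DESeq2 called 0 (1.37% of all genes called by edgeR), and by the second rule 1 rose and 4 fell (8.6% of all genes). At 24 h, 45 were tested, 18 had an unadjusted p below 0.05 and DESeq2 called 0 (1.73% of all genes called by edgeR), and 3 rose and 3 fell by the second rule (11.5%). At 48 h, 44 were tested, 8 had an unadjusted p below 0.05 and DESeq2 called 0 (0.169% of all genes called by edgeR), and 1 rose by the second rule (0.867%). At 72 h, 45 were tested, 11 had an unadjusted p below 0.05 and DESeq2 called 0 (0.766% of all genes called by edgeR), and 4 rose and 1 fell by the second rule (7.17%). Median log2 fold changes of the members at 6, 24, 48 and 72 h were -0.08, -0.16, 0.00 and -0.06, beside -0.01, -0.01, -0.01 and 0.00 over all genes.

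**Figure D1:**
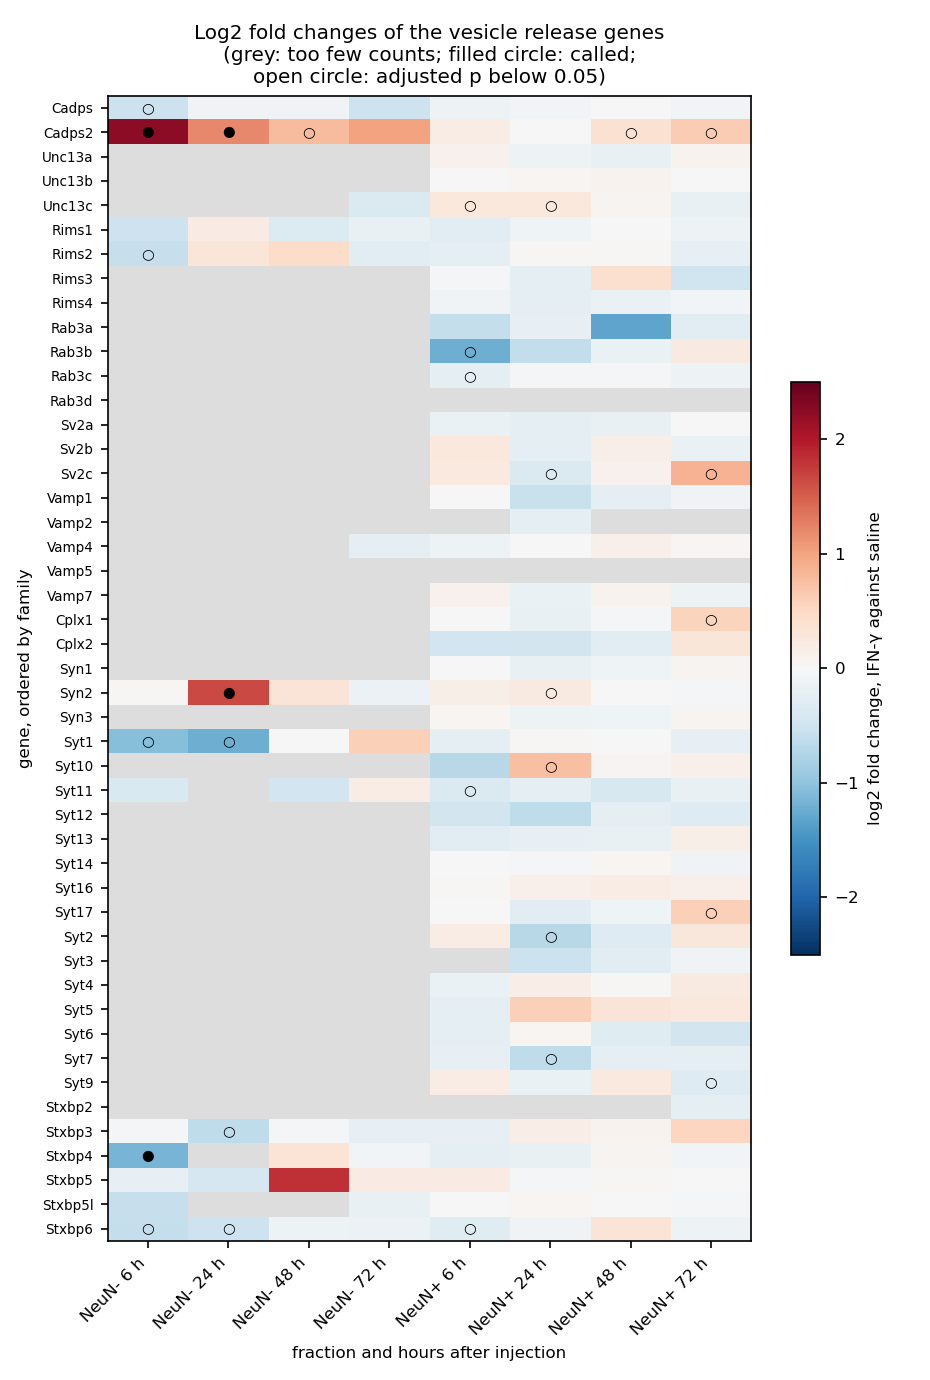
Log2 fold change of the members shown, IFN-γ against saline, in 8 comparisons (columns: fraction and hours; colour: log2 fold change; grey: too few counts for the test; filled circle: called by the first rule; open circle: adjusted p below 0.05). Cadps2 in NeuN- wells at 6 h, at 2.23, has the highest value of the members tested.

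A fit of both fractions at each time tested whether the IFN-γ effect differed between them. It is given as the NeuN+ effect minus the NeuN- effect on the log2 scale. At 6 h, 32 members were tested and 1 was called, with 2.53% of all genes. At 24 h, 36 were tested and 3 were called (4.22% of all genes). At 48 h, 32 were tested and edgeR called 0 (0.128% of all genes), with 4 at an unadjusted p below 0.05 and 0 called by DESeq2. At 72 h, 36 were tested and edgeR called 0 (0.347% of all genes), again with 4 at an unadjusted p below 0.05 and 0 called by DESeq2. Cadps2 was called at 6 h, and Cadps2 and Syn2 were among those called at 24 h. Next by p at 6 h stood Vamp4 (-1.08) and Stxbp4 (0.89), each with an adjusted p of 0.0817. At 48 h the smallest p-values were those of Unc13c (-0.85, adjusted p = 0.266), Stxbp5 (-1.76, 0.305) and Stxbp6 (0.42, 0.367). At 72 h they were those of Syn3 (0.97, adjusted p = 0.143), Stxbp3 (0.75, 0.172) and Vamp7 (-1.13, 0.277).

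Cadps2 (ENSMUSG00000017978.18, chromosome 6, 23262773 to 23839421 on the minus strand of GRCm38) was high in NeuN- nuclei within 6 h of IFN-γ. Its levels there were 566, 578 and 687 CPM (lowest, median and highest of 6 wells), and the 4 saline wells had 123.3, 85.64, 130.0 and 171.8 CPM. Every IFN-γ well lay above every saline well. The log2 fold change was 2.23 (SE 0.171, a fold of 4.70, adjusted p = 3.2e-13), and it ranked 1 by p among the members tested. At 24 h the IFN-γ wells had 221, 254 and 299 CPM and the 6 saline wells 60.6, 103 and 130 CPM. The groups were again apart, with a log2 fold change of 1.20 (SE 0.192, adjusted p = 7.55e-06). Summed oligodendrocyte markers (8 genes) moved in the same wells, with 4150, 5192 and 5494 CPM after IFN-γ and 7646, 8540 and 8668 CPM in saline at 6 h, and 2511, 2910 and 3148 against 7652, 8342 and 9494 CPM at 24 h. Summed microglia markers (7 genes) at 6 h were 47.7, 130.0 and 169.6 CPM after IFN-γ and 420.0, 450.2 and 548 CPM in saline, and those of oligodendrocyte precursors (4 genes) 620, 704 and 854 against 500.5, 518 and 531 CPM, so these too were apart. Counts of the Y-linked Eif2s3y at 6 h were 0 to 1 in NeuN- IFN-γ wells and 11 to 22 in NeuN- saline wells, so the sex mix of the nuclei and the treatment cannot be told apart at that time. At 24 h Xist counts were 12 to 51 after IFN-γ and 153, 243, 244, 286, 18 and 9 in saline, so the sex mix differed between the groups there too. Mitochondrial transcripts in those 24 h wells were 1068 to 2973 CPM after IFN-γ and 2922 to 6525 CPM in saline. The part of these shifts in the Cadps2 results was not tested.

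At the later times the Cadps2 difference in NeuN- wells was smaller. At 48 h the IFN-γ wells had 114, 149 and 180 CPM and the saline wells 82.96, 109.5, 88.48 and 62.44 CPM. The groups did not overlap, and the log2 fold change was 0.79 (SE 0.247, adjusted p = 0.0455). That p rose above 0.05, to at most 0.194, when any of saline replicates 1, 3 and 4 or IFN-γ replicates 1, 2, 3, 4 and 6 was left out. It was also above 0.05 with DESeq2, with no filter on low counts, with saline wells of all times, with the total count as a covariate and in 1 fit of all wells, where it reached 0.34. Summed oligodendrocyte markers in these 48 h wells were 7083, 8005 and 8437 CPM after IFN-γ and 8509, 8944 and 9317 CPM in saline, and microglia markers 236, 297.5 and 364 against 442, 544 and 623 CPM, both without overlap. At 72 h the IFN-γ wells had 81.4, 135 and 179 CPM and the saline wells 64.7, 22.32, 127.1 and 46.25 CPM. Saline replicate 3 lay within the IFN-γ range, and the log2 fold change of 1.01 (SE 0.313, adjusted p = 0.056) missed both rules. Without that well it was 1.47 (adjusted p = 0.00791), without IFN-γ replicate 1 it was 1.13 (0.026), and without saline replicate 2 it was 0.74 (0.257).

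In NeuN+ nuclei Cadps2 ran a different course. At 6 h the IFN-γ wells had 348, 386 and 416 CPM and the saline wells 267.0, 396.3, 302.9 and 300.8 CPM, and at 24 h the IFN-γ wells had 286, 322 and 348 CPM beside 300.1, 316 and 385 CPM in saline. The groups overlapped at both times, with log2 fold changes of 0.19 (adjusted p = 0.123) and 0.02 (0.915). At 48 h the IFN-γ wells had 322, 404 and 414 CPM and the saline wells 324.5, 299.2, 282.6 and 293.9 CPM. The lowest IFN-γ well lay just under the highest saline well, and the log2 fold change was 0.39 (SE 0.0853, adjusted p = 0.0258), past 0.05 in only 3 of the 10 fits without 1 well. The call was lost without any of saline replicates 2, 3 and 4 or IFN-γ replicates 2, 3, 4 and 5, with an adjusted p of at most 0.128, and with NeuN+ counts thinned to the NeuN- median total, at 0.622. At 72 h the IFN-γ wells had 444, 490 and 527 CPM and the saline wells 340.5, 319.0, 249.9 and 284.2 CPM. All 6 IFN-γ wells lay above the saline wells, with a log2 fold change of 0.64 (SE 0.071, a fold of 1.56, adjusted p = 1.23e-07).

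Markers of several cell types differed between the groups in the same 72 h NeuN+ wells, those of dopamine neurons among them. The summed dopamine level (6 genes, led by Slc18a2) was 452, 499.9 and 566 CPM after IFN-γ and 152, 209 and 252 CPM in saline. At 6 h it was 387, 440.1 and 534 against 282, 357 and 391.6 CPM, at 24 h 216, 259.6 and 285 against 205, 297 and 398 CPM, and at 48 h 307, 376 and 404 against 289, 336 and 346 CPM. The groups lay apart at 72 h and overlapped at the other times. The summed oligodendrocyte markers of the 72 h NeuN+ wells were also apart, with 657, 716 and 763 CPM after IFN-γ and 368, 402 and 458 CPM in saline. Summed VGLUT2 neuron markers (3 genes) were 1418, 1488 and 1536 CPM after IFN-γ and 2038, 2132 and 2176 CPM in saline, and astrocyte markers 91.65, 96.75 and 127 against 43.5, 66.2 and 75.3 CPM, again without overlap. Mitochondrial transcripts were 287 to 400 CPM after IFN-γ and 498.5 to 860 CPM in saline, apart as well. The part of these shifts in the 72 h values of Cadps2 was not tested.

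The IFN-γ effect on Cadps2 differed between the fractions early on. The difference was -2.10 (SE 0.203, adjusted p = 3.78e-11) at 6 h and -1.29 (SE 0.203, adjusted p = 5.05e-06) at 24 h, larger in NeuN- at both. At 48 h it was -0.42 (adjusted p = 0.624) and at 72 h -0.35 (0.737), and no difference passed the test there.

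**Figure D2:**
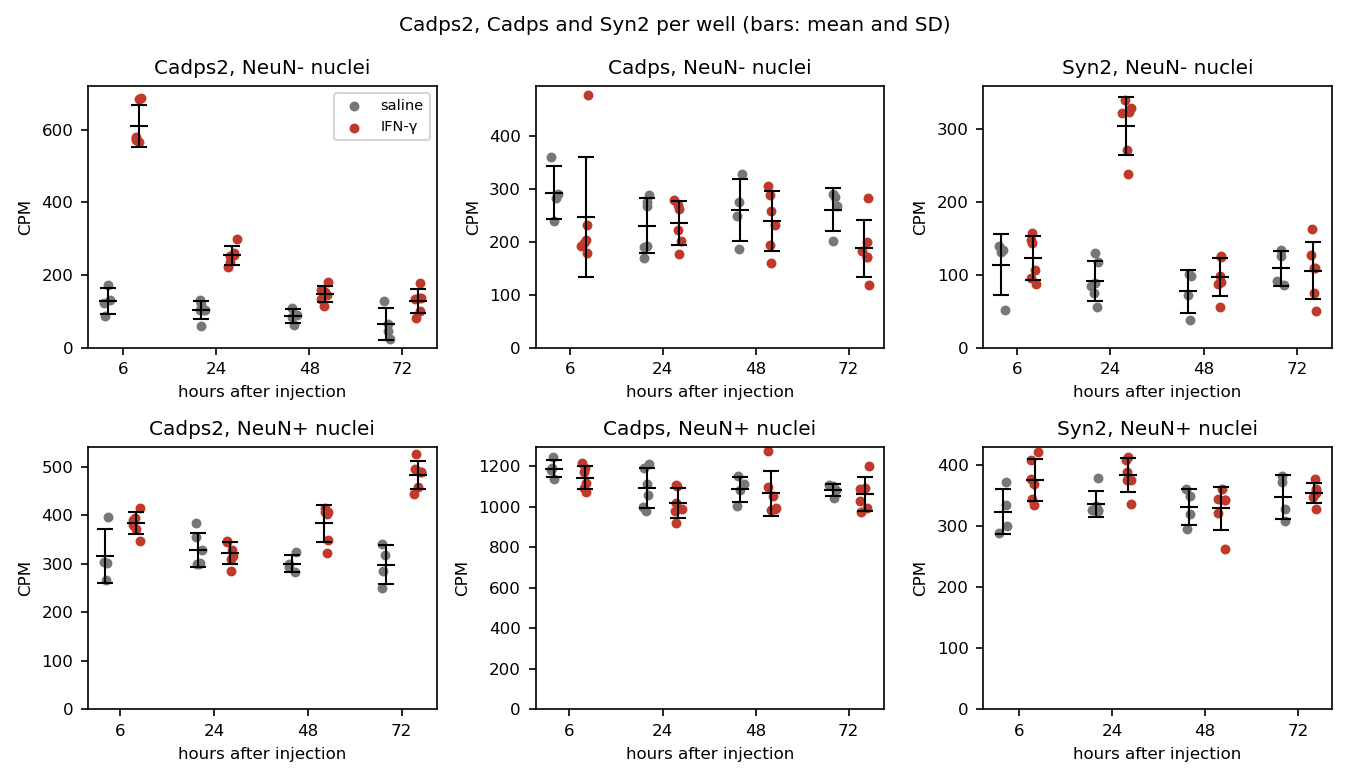
CPM of Cadps2, Cadps and Syn2 in each well (points; y axis from 0) by hours after injection, for NeuN- (upper panels) and NeuN+ (lower panels) nuclei, grey for saline and red for IFN-γ, with mean and SD bars. The Cadps2 IFN-γ wells at 6 h in NeuN- nuclei sit between 566 and 687 CPM, above the saline wells, and the Syn2 IFN-γ wells at 24 h sit between 238 and 339 CPM.

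Cadps (ENSMUSG00000054423.13, chromosome 14, 12372563 to 12823079 on the minus strand), the CAPS gene of most neurons, did not follow its paralog. In NeuN- wells at 6 h the IFN-γ levels were 477.1, 191.6, 179.5, 197.8, 204.2 and 231.6 CPM, and the saline levels were 290.1, 282.6, 359.9 and 238.6 CPM. IFN-γ replicate 1, the well with 20962 counts, was high and the other 5 lay below all saline wells. The log2 fold change was -0.55 (SE 0.185, adjusted p = 0.0206), and the p passed 0.05 without saline replicate 3 or IFN-γ replicate 3, reaching 0.088, and with no filter on low counts, DESeq2, saline wells of all times and 1 fit of all wells, reaching 0.244. At 24, 48 and 72 h the NeuN- log2 fold changes were -0.09, -0.09 and -0.53, with adjusted p-values of 0.718, 0.864 and 0.125. In NeuN+ wells at 6, 24, 48 and 72 h they were -0.12, -0.06, -0.02 and -0.07, with adjusted p-values of 0.419, 0.749, 0.985 and 0.723, and the groups overlapped each time.

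Among the priming factors of the active zone, Unc13c, a Munc13 isoform, was higher in NeuN+ wells early. At 6 h its IFN-γ wells had 504, 537 and 574 CPM and its saline wells 382.5, 449.0, 458.2 and 411.4 CPM. At 24 h the IFN-γ wells had 435, 461 and 517 CPM and the saline wells 363, 406 and 434 CPM. All IFN-γ wells lay above the saline wells at both times, with log2 fold changes of 0.26 (SE 0.0672, adjusted p = 0.0101) and 0.26 (SE 0.0647, adjusted p = 0.00933). The 6 h p rose to 0.0776 without saline replicate 4, and with NeuN+ counts thinned the p-values were 0.2 at 6 h and 0.384 at 24 h. At 48 and 72 h Unc13c had adjusted p-values above 0.05, and Unc13a and Unc13b stayed above 0.05 in each NeuN+ comparison.

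Marker levels differed between the groups in these NeuN+ wells as well. At 6 h the summed VGLUT2 markers were 1536, 1572 and 1684 CPM after IFN-γ and 1841, 1982 and 2045 CPM in saline. Oligodendrocyte markers were 178, 206 and 234 against 312, 321 and 437 CPM, and astrocyte markers 23.3, 32.7 and 35.7 against 54.1, 63.3 and 82.0 CPM. Each of these was apart, and Eif2s3y counts were 0 to 3 after IFN-γ and 18 to 69 in saline. At 24 h the summed GABA neuron markers (3 genes) were 107, 136 and 160.5 CPM after IFN-γ and 206, 251.5 and 323 CPM in saline, and astrocyte markers 125, 133 and 142 against 31.1, 63.0 and 107 CPM. These were apart too, and Xist counts were 29 to 85 after IFN-γ and 35 to 1337 in saline. In single nuclei Unc13c was higher in the VGLUT2-like class than in the other named classes in all 3 mice. The part of these shifts in the NeuN+ values of Unc13c, and of the other members named at 6 and 24 h, was not tested.

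Of the RIM scaffolds, Rims2 in NeuN- wells at 6 h had a log2 fold change of -0.57 (SE 0.205, adjusted p = 0.0301), lost without saline replicate 2 or 4 or IFN-γ replicate 3 or 5 (adjusted p up to 0.111) and with no filter on low counts, DESeq2 and 1 fit of all wells (up to 0.26). At 48 h Rims2 stood at 0.46 (adjusted p = 0.111) and at 72 h at -0.26 (0.585) in the same fraction. No RIM gene passed 0.05 in NeuN+ wells. Of the Rab3 GTPases, which recruit RIM to the vesicle, Rab3b in NeuN+ wells at 6 h had 4.41, 5.79 and 12.2 CPM after IFN-γ and 14.43, 24.62, 11.36 and 15.04 CPM in saline. The groups overlapped at these low levels, and the log2 fold change was -1.22 (SE 0.324, adjusted p = 0.0141), or -0.92 (0.165) without saline replicate 2. Rab3c at 6 h was at -0.23 (adjusted p = 0.0427), above 0.05 in 7 of the 10 fits without 1 well: those without saline replicates 1, 2 and 3 or IFN-γ replicates 1, 2, 4 and 6, with p-values up to 0.124. It was also above 0.05 in 6 of 8 alternatives, up to 0.532. At 48 h Rab3a was at -1.33 (adjusted p = 0.109).

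Among the syntaxin-binding proteins, Stxbp4 (ENSMUSG00000020546.14) in NeuN- wells at 6 h was the member called lower. Its IFN-γ wells had 0, 43.55, 63.08, 33.91, 92.8 and 28.94 CPM and its saline wells 152.3, 68.51, 99.96 and 114.6 CPM. The well at 0 is IFN-γ replicate 1, where 0 of 20962 counts allows a level of up to 143 CPM (3 counts), and the groups overlapped. The log2 fold change was -1.17 (SE 0.343, adjusted p = 0.00762). The call was lost in 6 of 9 fits without 1 well, those without saline replicates 1, 3 and 4 or IFN-γ replicates 2, 4 and 6, over which the log2 fold change ran from -1.35 to -0.94 and the adjusted p reached 0.0816. It was also lost with DESeq2, at -1.18 (adjusted p = 0.031), with no filter on low counts, at -1.08 (0.038), and with saline wells of all times, at -0.82 (0.0209).

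Stxbp6, which binds SNAREs, was lower in NeuN- wells at 6 and 24 h, and Stxbp3 at 24 h. Stxbp6 at 6 h had 164, 264 and 316 CPM after IFN-γ and 340.9, 325.4, 409.8 and 362.7 CPM in saline. All IFN-γ wells lay below the saline wells, with a log2 fold change of -0.60 (SE 0.165, adjusted p = 0.00427). At 24 h Stxbp6 was at -0.52 (adjusted p = 0.0151, and 0.0532 at most without saline replicate 5 or IFN-γ replicate 2), and Stxbp3 had 147, 188 and 221 CPM after IFN-γ beside 205, 243 and 351 CPM in saline. The Stxbp3 groups overlapped, with a log2 fold change of -0.63 (SE 0.173, adjusted p = 0.00377). With no filter on low counts the adjusted p was 0.106 and 0.306 for Stxbp6 at 6 and 24 h and 0.228 for Stxbp3. In NeuN+ wells at 6 h Stxbp6 was at -0.31 (adjusted p = 0.00936, 0.0942 without saline replicate 3, and up to 0.351 with thinned counts, the total count as a covariate or 1 fit of all wells). The oligodendrocyte marker levels given above moved the same way in these NeuN- wells at 6 and 24 h, and their part was not tested.

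Stxbp5, which encodes tomosyn, an inhibitor of SNARE pairing, rested on 1 well at 48 h in NeuN- nuclei. Its IFN-γ wells had 161.1, 112.6, 158.8, 192.9, 2493 and 143.4 CPM and its saline wells 134.8, 126.4, 157.3 and 162.4 CPM. IFN-γ replicate 5 stood alone and the other wells overlapped. The log2 fold change was 1.82 (SE 0.621, adjusted p = 0.074), and 0.17 (0.807) without that well. Of the VAMP genes, which carry the vesicle SNAREs, none passed an adjusted p of 0.05 in the 8 comparisons. Vamp2 had enough counts for the test in NeuN+ wells at 24 h alone of those 8.

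Cplx1, a complexin, rose in NeuN+ wells at 72 h. Its IFN-γ wells had 61.9, 77.8 and 85.1 CPM and its saline wells 43.53, 56.4, 55.12 and 47.63 CPM, without overlap. The log2 fold change was 0.56 (SE 0.122, adjusted p = 0.00292). Cplx2 stayed above an adjusted p of 0.05 in each NeuN+ comparison.

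Of the synaptotagmins, Syt2, Syt7 and Syt10 passed an adjusted p of 0.05 in NeuN+ wells at 24 h. Syt2, a fast calcium sensor of hindbrain and inhibitory synapses, had 34.4, 39.6 and 46.7 CPM after IFN-γ and 43.3, 68.7 and 87.5 CPM in saline, and Syt7, a slow sensor, had 31.3, 45.5 and 64.9 against 55.5, 68.1 and 114 CPM. Both overlapped saline at its lowest wells, with log2 fold changes of -0.69 (SE 0.142, adjusted p = 0.00176) and -0.63 (SE 0.153, adjusted p = 0.0067). Syt10 had 15.6, 20.9 and 25.9 CPM after IFN-γ and 8.82, 13.6 and 15.1 CPM in saline. Its groups did not overlap, with a log2 fold change of 0.75 (SE 0.188, adjusted p = 0.00842). The GABA and astrocyte marker levels and Xist counts given above for these wells differed between the groups, and their part in the 3 values was not tested.

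At other times and in NeuN- wells the synaptotagmin values depended on single wells. Syt1 in NeuN- wells at 6 h had 238.5, 95.82, 43.67, 56.52, 74.24 and 125.4 CPM after IFN-γ and 130.6, 42.82, 329.9 and 152.7 CPM in saline. The groups overlapped, and the log2 fold change of -1.06 (SE 0.366, adjusted p = 0.0223) became -0.53 (0.32) at its weakest, with p above 0.05 without saline replicate 3 or IFN-γ replicate 3 or 4. At 24 h Syt1 was at -1.22 (SE 0.381, adjusted p = 0.0106), with p at most 0.0609 without IFN-γ replicate 1 or 2. It was lost with DESeq2, at -0.78, with the total count as a covariate, at -0.38, and in 1 fit of all wells, at -1.14, with an adjusted p of up to 0.44. Syt11 in NeuN+ wells at 6 h was at -0.36 (adjusted p = 0.0238), with p up to 0.237 without saline replicate 2 or IFN-γ replicate 1, and at 48 h at -0.40 (adjusted p = 0.0928). Syt17 at 72 h was at 0.60 (adjusted p = 0.0113), with p up to 0.075 without saline replicate 2 or 4. Syt9 at 72 h was at -0.32 (adjusted p = 0.0362), with p up to 0.157 without saline replicate 2, 3 or 4 or IFN-γ replicate 2, 4 or 5. With DESeq2 the values of Syt1 at 6 h, Syt11 at 6 h and Syt17 and Syt9 at 72 h were each above an adjusted p of 0.05. The summed neuron markers of the NeuN- wells overlapped between the groups at 6 h, with 801, 1009 and 2958 CPM after IFN-γ and 1156, 1469 and 2449 CPM in saline.

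Syn2 (ENSMUSG00000009394.13, chromosome 6, 115134902 to 115282006 on the plus strand), a synapsin that tethers vesicles to each other, rose in NeuN- nuclei at 24 h. Its IFN-γ wells had 238, 323 and 339 CPM and its saline wells 55.1, 86.9 and 130 CPM. Every IFN-γ well lay above every saline well, with a log2 fold change of 1.66 (SE 0.208, a fold of 3.15, adjusted p = 1.61e-07). In the same fraction its IFN-γ and saline groups overlapped at 6, 48 and 72 h, with medians of 125, 93.9 and 109.6 CPM after IFN-γ and 132, 85.5 and 108 CPM in saline. In NeuN+ wells at 24 h Syn2 had 336, 382 and 413 CPM after IFN-γ and 324, 326 and 378 CPM in saline. These groups overlapped, with a log2 fold change of 0.23 (SE 0.06, adjusted p = 0.0112), lost with no filter on low counts and with thinned counts (p up to 0.237). The marker levels and Xist counts given above for these NeuN+ wells differed between the groups. The effect differed between fractions by -1.53 (SE 0.204, adjusted p = 1.7e-07).

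Summed astrocyte markers (6 genes, led by Slc1a3) were higher in the same NeuN- wells at 24 h, with 1011, 1204 and 1406 CPM after IFN-γ and 388, 563 and 795 CPM in saline. At 48 h they were 627, 713 and 777 CPM against 342, 446 and 598 CPM, without overlap, while Syn2 overlapped. At 6 h they were 435, 514 and 558 CPM against 442.5, 501 and 620 CPM. Xist counts in the NeuN- wells at 24 h were 12 to 51 after IFN-γ and 9 to 286 in saline. The part of these shifts, and of those in oligodendrocyte markers and mitochondrial transcripts given above, in the Syn2 result was not tested. A neighbour, Timp4, overlaps Syn2 on the opposite strand and had 54 counts in NeuN- wells and 130 in NeuN+ wells over the whole table.

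Sv2c, the SV2 gene of midbrain dopamine neurons, rose in NeuN+ nuclei at 72 h. Its IFN-γ wells had 155, 166 and 211 CPM and its saline wells 122.8, 79.52, 95.55 and 75.41 CPM. All IFN-γ wells lay above the saline wells, with a log2 fold change of 0.86 (SE 0.112, adjusted p = 2.58e-06). At 24 h its IFN-γ wells had 76.6, 86.5 and 104.5 CPM and its saline wells 82.6, 122 and 135 CPM. These overlapped, with a log2 fold change of -0.36 (SE 0.107, adjusted p = 0.0285), above 0.05 in 6 of 12 fits without 1 well, namely saline replicates 2, 3 and 4 and IFN-γ replicates 1, 3 and 4 (p up to 0.0738), and with DESeq2 and thinned counts (up to 0.678). The dopamine, VGLUT2, oligodendrocyte and astrocyte marker levels and the mitochondrial levels given above were apart at 72 h in the same wells, and their part in the Sv2c and Cplx1 values was not tested. Sv2a and Sv2b did not pass an adjusted p of 0.05 in NeuN+ wells.

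A list of 54 other genes of vesicle release and recycling, all found in the table, gives the setting of the members. Its counts at an unadjusted p below 0.05 also stand without the share of all genes at that limit. In NeuN- wells at 6 h 13 were tested, 0 rose and 2 fell by the first rule, where 11.7% of all genes were called. These were Dnajc6, which encodes auxilin, a factor that uncoats clathrin vesicles, at -1.84 (SE 0.247, adjusted p = 1.83e-07), and Amph, an endocytic adaptor, at -1.06 (SE 0.177, adjusted p = 9.48e-06). At 24 h 8 were tested and edgeR called Dnajc6 (14.6% of all genes called), at -1.35 (SE 0.19, adjusted p = 1.07e-06). DESeq2 called 2 genes of the list at 6 h and 4 at 24 h. For both genes at 6 h, and for Dnajc6 at 24 h, all IFN-γ wells lay below the saline wells. The oligodendrocyte marker levels given above for these NeuN- wells were lower after IFN-γ at both times and the sex mix differed, and their part in the Dnajc6 and Amph values was not tested. At 48 and 72 h in NeuN- wells, with 11 and 16 genes tested, edgeR and DESeq2 called 0 by the first rule, 4 and 1 had an unadjusted p below 0.05, and 1 and 0 passed the second rule of edgeR. Of all genes 1.4% and 1.13% passed the first rule there and 6.21% and 3.98% the second. In NeuN+ wells 48 were tested at each time and edgeR and DESeq2 called 0 by the first rule. There 8, 10, 8 and 10 had an unadjusted p below 0.05 at 6, 24, 48 and 72 h, and 3, 3, 0 and 1 passed the second rule of edgeR. Of all genes 1.37%, 1.73%, 0.169% and 0.766% passed the first rule at those times and 8.6%, 11.5%, 0.867% and 7.17% the second. Among the smallest p-values there was that of Sytl2, a Rab27 effector, at 24 h (0.59, SE 0.102, adjusted p = 0.000278). Genes for which the effect differed between fractions include Dnajc6 at 6 h (1.74) and, at 24 h, Dnajc6 (1.23), Napb (-1.62) and Synpr (-1.28).

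Single nuclei at 48 h show which classes carry the members. Clusters were made without the member genes and named by marker scores, giving dopamine-like, GABA-like, VGLUT2-like, oligodendrocyte-like and astrocyte-like classes and 4 clusters without a name. Cluster 11 of these held all 7 microglia markers, which summed to 9526, 5182 and 5686 CPM (saline mouse, then the IFN-γ mice). Its microglia score was 4.03, against 0.81 for the next list. It stayed unnamed under the naming rule because its counts were low and none of those markers was among its leading genes. The members together took 15640, 15580 and 14210 CPM in dopamine-like nuclei (saline mouse, then the IFN-γ mice), 10550, 10680 and 10340 in GABA-like and 10030, 10730 and 10190 in VGLUT2-like nuclei. The named glial classes were lower, with 2646, 2532 and 2122 CPM in oligodendrocyte-like and 1988, 2174 and 2119 in astrocyte-like nuclei. Cluster 11 had 1465, 1189 and 912 CPM. There was 1 saline mouse, so that group has no replicates. Over the 5 named classes and cluster 11, without clusters 7, 14 and 15, the same class had the highest level in all 3 mice for 26 members, dopamine-like for 12, GABA-like for 5, VGLUT2-like for 3, oligodendrocyte-like for 3 (Syt11, Stxbp3 and Stxbp6), astrocyte-like for 2 (Stxbp4 and Syt12) and cluster 11 for Stxbp2, and for the other 22 it differed between mice. Of the clusters left out, cluster 14 held Stxbp6 at 1856, 1541 and 1566 CPM, from 3, 91 and 5 nuclei, above its oligodendrocyte-like level in each mouse.

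Cadps2 in single nuclei was highest in dopamine-like nuclei, with 1465, 1502 and 1381 CPM in the saline and the IFN-γ mice. The 95% Poisson intervals of the saline mouse and each IFN-γ mouse overlapped there. GABA-like nuclei had 138, 160 and 119 CPM and VGLUT2-like nuclei 107, 92.0 and 119.5 CPM, so these classes lay below dopamine-like in each mouse. GABA-like lay above VGLUT2-like in the saline mouse and in IFN-γ mouse 1, with intervals apart, and the intervals overlapped in mouse 2. Oligodendrocyte-like nuclei had 73.4 CPM in saline from 51 molecules (95% interval 54.7 to 96.5) and 127 (114 to 141) and 112 (95.6 to 131) CPM in the IFN-γ mice. The saline interval lies below that of IFN-γ mouse 1 and meets that of mouse 2 at its edge. Dopamine markers in this class stood at 4.74%, 2.93% and 3.64% of their dopamine-like level, and those shares of the dopamine-like Cadps2 level are 69.4, 44.0 and 50.3 CPM. The saline interval includes its value of these, so a Cadps2 level of the saline oligodendrocyte-like nuclei themselves and RNA carried over from dopamine-like nuclei cannot be told apart, while both IFN-γ intervals lie above theirs. Astrocyte-like nuclei had 18.3, 23.2 and 43.0 CPM from 2, 15 and 10 molecules, and cluster 11 had 71.4, 20.4 and 8.61 CPM from 6, 4 and 2, so those levels rest on few molecules. Of the other clusters without a name, cluster 7 had 334, 329 and 652 CPM, cluster 15 had 711, 47.5 and 523 CPM and cluster 14 had 62.6, 8.96 and 14.8 CPM, each below dopamine-like nuclei of the same mouse. The Poisson intervals cover counting error only.

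Cadps and Syn2 sat in other classes. Cadps had 1493, 1377 and 1338 CPM in GABA-like, 1220, 1137 and 1070 in VGLUT2-like and 1006, 958 and 861 in dopamine-like nuclei, with 288, 163 and 154 in oligodendrocyte-like and 18.3, 47.9 and 30.1 in astrocyte-like nuclei. Syn2 had 302, 396 and 425 CPM in astrocyte-like nuclei, beside 343, 363 and 328 in GABA-like and 357, 369 and 363 in VGLUT2-like nuclei. Syn2 was low in dopamine-like nuclei, with 50.2, 40.5 and 94.1 CPM, and in oligodendrocyte-like nuclei, with 10.1, 24.1 and 15.2 CPM. Sv2c had 792, 841 and 582 CPM in dopamine-like nuclei. Stxbp3 had 276, 240 and 258 CPM and Stxbp6 had 632, 633 and 452 CPM in oligodendrocyte-like nuclei.

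**Figure D3:**
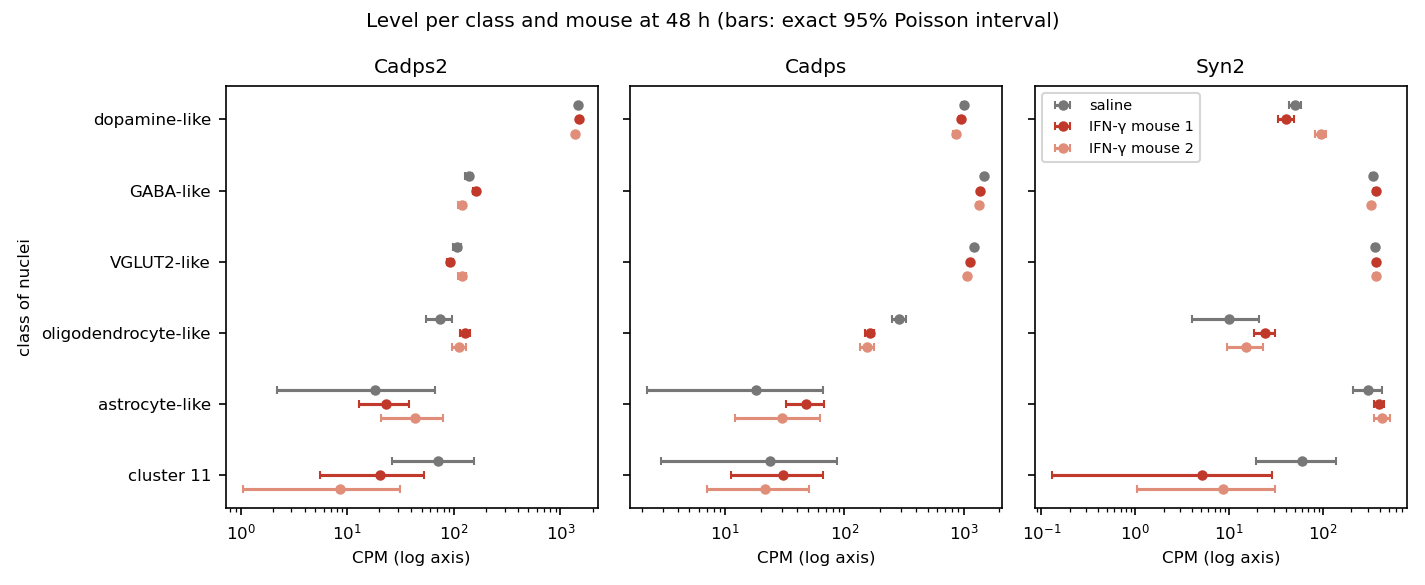
CPM (log axis) of Cadps2, Cadps and Syn2 by class of nuclei (y axis) for the saline mouse (grey) and the IFN-γ mice (red shades) at 48 h, with exact 95% Poisson intervals. Cadps2 is highest in dopamine-like nuclei, at 1381 to 1502 CPM over the 3 mice.

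Counts summed by mouse within each class were fitted with edgeR to test IFN-γ against saline. A member was called when its log2 fold change passed 3, its adjusted p was below 0.01 and both IFN-γ mice lay beyond 3. The share of all genes at an unadjusted p below 0.05 was not computed here either, so member counts at that limit have nothing to be set against. EdgeR called 0 members in each of the 6 classes fitted, as did DESeq2. In oligodendrocyte-like nuclei 43 members were tested, 14 at an unadjusted p below 0.05 (2 by DESeq2), where 0.601% of all genes were called. In astrocyte-like nuclei 32 were tested, 3 at an unadjusted p below 0.05 (0 by DESeq2), where 0.116% were called. VGLUT2-like nuclei had 47 tested, 4 at an unadjusted p below 0.05 (2 by DESeq2) and 0.0318% of all genes called, and GABA-like nuclei had 47 tested, 0 at an unadjusted p below 0.05 (0 by DESeq2) and 0.00538% called. Dopamine-like nuclei had 47 tested, 1 at an unadjusted p below 0.05 (0 by DESeq2) and 0.0504% called, and cluster 11 had 20 tested, 6 at an unadjusted p below 0.05 (0 by DESeq2) and 0.783% called. At an adjusted p below 0.05, 3 members passed in oligodendrocyte-like nuclei (2.3% of all genes) and edgeR took 0 in astrocyte-like (0.274%), VGLUT2-like (0.0689%), GABA-like (0.0269%) and dopamine-like nuclei (0.126%) and in cluster 11 (3.16%).

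Those 3 were Cadps, Cadps2 and Syt11, and the CAPS genes went opposite ways. In oligodendrocyte-like nuclei Cadps had a log2 fold change of -0.79 (SE 0.173, adjusted p = 0.000536), with -0.74 and -0.85 in the IFN-γ mice. Cadps2 had 0.78 (SE 0.23, adjusted p = 0.0325), with 0.86 and 0.66. Syt11 had -0.54 (SE 0.159, adjusted p = 0.0329), with -0.52 and -0.57. With 1 saline mouse these p-values take its spread to be like that of the IFN-γ mice, which was not tested. The make-up of the class moved with treatment. Its cluster 0, led by the IFN-γ response gene Iigp1, held 0 nuclei of the saline mouse and 456 and 188 of the IFN-γ mice, cluster 2 held 75, 262 and 111, and cluster 10 held 116, 26 and 7. Summed dopamine markers in the class were 112, 70.0 and 79.65 CPM in the saline and the IFN-γ mice, GABA markers 47.5, 31.5 and 18.7 CPM and VGLUT2 markers 37.4, 70.0 and 41.6 CPM. The GABA markers were at 8.19%, 5.84% and 3.25% of their GABA-like level. Those shares of the GABA-like Cadps level are 122, 80.4 and 43.4 CPM, below the 288, 163 and 154 CPM of the class in each mouse. The part of carried-over RNA in the Cadps values was not tested. The part of these shifts in the class values was not tested.

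In the other classes the members with the smallest p did not pass an adjusted p of 0.05. In VGLUT2-like nuclei Syt2 had 177, 91.3 and 115 CPM in the saline and the IFN-γ mice (log2 fold change -0.79, adjusted p = 0.172), Syt9 had 46.0, 95.2 and 76.6 CPM (0.90, 0.176) and Unc13b had 54.2, 77.4 and 67.9 CPM (0.42, 0.717). Both IFN-γ mice lay on the same side of the saline mouse for these genes. The make-up of this class, with 260, 675 and 270 nuclei, also differed between mice. Its cluster 17 held 48, 6 and 32 and its cluster 16 held 2, 81 and 12, and at resolution 2 the cluster with Syt2 among its leading genes held 69, 86 and 42. The part of that in the class values was not tested. In dopamine-like nuclei the first by p were Syt10, with 6.28, 9.66 and 16.8 CPM, Unc13c and Syn2, and in GABA-like nuclei Rab3a, Syt6 and Syt3, each with an adjusted p of 1. Syt10 and Syt2 in astrocyte-like nuclei and Stxbp4 in cluster 11 had 0 molecules in the saline mouse and 17 and 5, 20 and 1, and 13 and 10 in the IFN-γ mice. These last adjusted p-values were 0.635, 0.664 and 0.124.

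Promoter windows from RefSeq (GRCm38.p6, 250 bases before to 50 after a gene's start) were found for 36 members, in 46 windows. Both strands were searched for TTCNNNGAA, the letters of the interferon-gamma activated site, and for GAAA followed by any 2 bases and GAAA again, those of an interferon response element. TTCNNNGAA was in 8.3% of all 32851 windows and in 2 member windows, of Sv2b and Syn2, and the GAAA repeat was in 3.44% of all windows and in 5 member windows, of Sv2b, Syt6, Unc13a and Vamp1. The windows of Cadps2 (chr6:23839372-23839671, minus strand) and Syn2 (chr6:115134652-115134951 and chr6:115238744-115239043, plus strand) are shown because these members had the highest log2 fold changes among those called. Capitals mark a TTCNNNGAA match, and a match is a description of letters, not a site of binding.
Cadps2: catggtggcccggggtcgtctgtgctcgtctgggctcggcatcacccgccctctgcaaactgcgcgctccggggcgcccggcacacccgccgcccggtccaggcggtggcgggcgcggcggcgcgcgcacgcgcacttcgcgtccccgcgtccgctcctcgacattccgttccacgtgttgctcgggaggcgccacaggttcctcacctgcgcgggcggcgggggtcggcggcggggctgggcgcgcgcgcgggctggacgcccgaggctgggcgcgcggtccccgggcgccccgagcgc
Syn2: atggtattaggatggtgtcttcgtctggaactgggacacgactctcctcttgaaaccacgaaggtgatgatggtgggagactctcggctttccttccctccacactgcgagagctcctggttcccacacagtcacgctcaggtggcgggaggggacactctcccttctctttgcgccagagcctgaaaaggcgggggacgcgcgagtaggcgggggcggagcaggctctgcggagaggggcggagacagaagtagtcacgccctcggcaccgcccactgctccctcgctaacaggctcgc
Syn2: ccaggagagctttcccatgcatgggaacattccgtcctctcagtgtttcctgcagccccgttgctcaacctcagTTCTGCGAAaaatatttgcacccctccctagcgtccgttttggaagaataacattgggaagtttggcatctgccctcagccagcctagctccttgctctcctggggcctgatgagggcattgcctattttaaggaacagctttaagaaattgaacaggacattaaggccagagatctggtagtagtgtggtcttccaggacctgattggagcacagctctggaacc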

How the data were processed

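The authors deposited counts of unique molecules per gene for each well and for each nucleus. These were made by aligning trimmed reads with STAR to GRCm38 and collapsing reads that share a barcode, molecular identifier and gene. By the paper, doublets, rare populations such as mural cells and T cells, and ambiguous neuronal clusters were left out, so the classes here do not cover them. No further scaling had been applied to the deposited counts. From these counts each fraction and time was fitted with edgeR 4.0.16 (quasi-likelihood F test, TMM factors of 0.884 to 1.11, filterByExpr) in R 4.3.3 on all genes, with Benjamini-Hochberg adjustment over the genes tested. The difference between fractions was the fraction by treatment term of a fit of all wells at a time. DESeq2 1.42.0 with default settings was an alternative, as were DESeq2-type size factors, no filter on low counts, saline wells of all times as controls, 1 fit of all wells, NeuN+ counts thinned to the median NeuN- total, and leaving out each well in turn. The log2 total as a covariate, and leaving out wells under 60% of the median total of their fraction (2 NeuN- and 5 NeuN+ wells), were chosen after seeing the data. The fits were tested on simulated data, and that outcome is not given here.

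Nuclei were clustered in Python 3.11.15 on 2000 variable genes without the members, 30 principal components, 15 neighbours and Leiden resolution 1 (leidenalg 0.10.2). Resolutions 0.5 and 2 were alternatives. A class took a marker list's name where its score led by 0.75, a lead set after the data were seen, with 3 markers each in at least 5% of nuclei, unless another list had more of its markers among the 10 leading genes, or none of its own stood there and the median count was below 33.3% of that of the mouse, as in cluster 11. The shares of neuron markers in oligodendrocyte-like nuclei were computed after the data were seen. Counts summed per mouse and class were fitted for genes with 10 or more molecules. With 1 saline mouse, its spread is assumed to be like that of the IFN-γ mice. Poisson intervals at 95% and the level that 0 counts allow (3 counts) cover counting error only.

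The members and the gene lists were chosen with earlier results of these data known. The genes named are Cadps and Cadps2, every member called in any comparison, the 3 members with the smallest p in each comparison, 1 abundant member of each other family, and, from the list of other vesicle genes, those called and the 2 with the smallest p in each fraction. Rab3d, Vamp5, Unc13d and Vamp8, at the count minimum, Stxbp2, Syt12, Syt17 and Sv2a fall outside this rule and were named after their values were seen. Napb and Synpr, called in the fit of both fractions at 24 h, were also named after their values were seen. Single results of some genes that the rule or the counts include are not reported here. Age and litter of single wells are not in the labels.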

Additional observations from a re-analysis of the deposited data

Results flagged for a closer look

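A sample far from the others of its group was looked for in 80 combinations of group and measure, and 6 were found. Chance alone gives about 1 in 20. The saline 24 h NeuN- well replicate 5 had a total of 145831 counts, and the others of its group had 67434 to 90692. The IFN-γ 48 h NeuN- well replicate 5 had 5088 CPM summed over the vesicle release genes, and the others had 2401 to 2789 CPM. Of that level 2493 CPM was Stxbp5. The IFN-γ 6 h NeuN- well replicate 1, the one with 20962 counts, had 3435 CPM summed over the members (the others 2673 to 2883 CPM) and 477.1 CPM of Cadps (the others 179.5 to 231.6 CPM). Syn2 stood at 51.38 CPM in saline 6 h NeuN- replicate 2, where the others had 130.6 to 139.9 CPM, and at 378.3 CPM in saline 24 h NeuN+ replicate 5, where the others had 323.7 to 332.8 CPM.

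The IFN-γ effect differed between fractions, by the test of the difference itself, for Cadps2 and Syn2 among others. The difference, NeuN+ minus NeuN-, was -2.10 at 6 h and -1.29 at 24 h for Cadps2, and -1.53 at 24 h for Syn2.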

How the results depend on the processing

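Cadps2 in NeuN- wells passed the first rule under all alternatives and without any 1 well, at log2 fold changes of 2.07 to 2.68 at 6 h and 1.09 to 1.39 at 24 h, as did Syn2 at 24 h (1.53 to 1.82). The differences between fractions of Cadps2 at 6 and 24 h and of Syn2 at 24 h also passed throughout, and Cadps2 in NeuN+ wells at 72 h kept an adjusted p below 0.05, at most 0.0384. So did Sv2c (at most 0.0122) and Cplx1 (0.0369) in the same wells and Syt2 (0.0077), Syt7 (0.0243) and Syt10 (0.0414) in NeuN+ wells at 24 h. Of the 8 alternatives run for Cadps2 and Sv2c in NeuN+ wells, Cplx1, Syt2 and Syt7 had values in 7 and Syt10 in 6. Each of the other members past 0.05 lost that under 1 or more alternatives or wells left out. Over the alternatives 352 list counts stayed within 1.5 times the reported count, 27 were higher and 40 lower. Of the single-gene values 581 kept their direction and side of the threshold, 113 lost it, 4 gained it and 1 changed sign, which was Cadps2 in NeuN+ wells at 24 h, at -0.0226 without saline replicate 5 (-0.0226 to 0.0778 over the wells left out). For the counts below the cause was not tested, except that DESeq2 and the fit without a filter take more members into the test and thinning leaves fewer counts. They stand without the share of all genes under the same setting. A setting can move the calls of every gene, so these counts describe only how the member counts moved.

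By the first rule, NeuN- wells at 6 h had 1 member with DESeq2 and 1 with saline wells of all times. NeuN- wells at 24 h had 4 without shallow wells. NeuN- wells at 48 h had 1, Stxbp5, with no filter, with all saline wells and with 1 fit of all wells. The difference between fractions at 48 h had 1, Stxbp5, with no filter. Saline NeuN+ against NeuN- had 44 with no filter, 17 with thinned counts and 41 with DESeq2. By the second rule, NeuN- wells at 6 h had 3 with DESeq2 and 3 with 1 fit, at 48 h 0 with DESeq2 and 0 with the covariate, and at 72 h 1 each with all saline wells, the covariate and 1 fit. NeuN+ wells at 6 h had 11 with all saline wells, 0 thinned, 2 with the covariate and 1 with 1 fit, and at 24 h 11 with all saline wells and 0 thinned. At 48 h they had 3 with no filter, 4 with all saline wells, 0 thinned, 3 with the covariate and 3 without shallow wells, and at 72 h 3 with DESeq2 and 2 thinned.

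Leaving out 1 well at a time, the first rule took 1 to 3 members at 6 h and 2 to 4 at 24 h in NeuN- wells, 0 to 1 in NeuN- wells at 72 h, and 0 to 1 in NeuN+ wells at 6 and 72 h. The second rule took 3 to 6, 3 to 7, 0 to 1 and 0 to 1 in NeuN- wells at 6, 24, 48 and 72 h. In NeuN+ wells at 6, 48 and 72 h it took 3 to 7, 0 to 2 and 3 to 6. The share of all genes in each of these fits is not given either.

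Depth limits the NeuN- wells, where 9 to 14 of the 48 members had counts enough for the edgeR test against saline. The others were not tested by it there. DESeq2, the fit without a filter and the fits of both fractions, with 32 to 36 members tested, took in more. In NeuN+ wells the counts of abundant genes rose less than in proportion to depth. The median slope of log count on log total was 1.11 for genes with mean counts of 10 to 100 and 0.543 above 1600, with 0.646 for Syt1, 0.811 for Rims2, 0.865 for Cadps and 1.18 for Cadps2. Class fits rest on 1 saline mouse.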
